A study of Mus musculus with 12 samples.

Results

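The cornified envelope genes described here are 9 structural protein genes of the outermost epidermis, namely the filaggrin-type (fused S100-type) genes Flg, Flg2, Hrnr, Rptn, Tchh, Tchhl1 and Crnn, together with Ivl (involucrin) and Lor (loricrin). They were chosen by gene symbol, and 8 of the 9 have a row among the 14533 genes of the deposited count table. Flg, which encodes profilaggrin itself and lies between Flg2 and Hrnr on chromosome 3 in the GENCODE annotation (93273523 to 93293686), has no row and was not analysed here. RNA came from curette scrapings of frozen, non-lesional dorsal skin, taken down to the superficial dermis, from 6 WT and 6 Pparg-/-epi mice, with 1 library per mouse. All 12 mice were untreated C57BL/6 animals carrying Pparg (flox/flox), aged 8 to 13 weeks by the labels. WT mice were Cre-/- siblings, 3 female and 3 male, and Pparg-/-epi mice were Cre+/- for the Cytokeratin14 promoter-driven transgene, 4 female and 2 male. The keratin 14 promoter is active in the basal layer of the epidermis and in the follicle and sebaceous gland, so the transgene also acts in those appendages and is not meant to act in dermal cells.

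In the granular layer of the epidermis, keratinocytes make large amounts of a few proteins that are later cross-linked by transglutaminases into the cornified envelope, the shell that replaces the plasma membrane of the dead surface cells. Loricrin is the main protein of that shell and involucrin is laid down early as a scaffold. The filaggrin-type proteins carry a calcium-binding S100 domain at the amino end and long repeats behind it. Profilaggrin is cut into filaggrin, which bundles keratin filaments and is then broken down into moisture-retaining amino acids. Filaggrin-2 and hornerin are close relatives of it, repetin is another envelope precursor, cornulin is best known from squamous mucosa, and trichohyalin hardens the inner root sheath and the medulla of the hair. All 9 genes sit in the epidermal differentiation complex.

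Some of the members hold the same short promoter elements, shown here to place the genes beside their start sites, and neither element is in all 9 windows. In the RefSeq promoter windows (assembly GRCm38.p6, 250 bases before to 50 bases after the start site), all 9 genes had a window. Of these genes, 7 held TGANTCA, a pattern looser than the AP-1 consensus (N is any base, and the pattern reads the same on the opposite strand). The AP-1 consensus has C or G as its middle base, and of the stretches below only those of Ivl and Lor do. The looser pattern occurs in 7.81% of the 32851 windows of the table. Hrnr and Tchh held no match in their windows. Each line gives 30 bases on the strand of the gene, with the motif in capitals and its first base counted from the start site.
Ivl, first base at -116, chr3:92573832-92573861 (minus strand): agttatcagaTGACTCAgaaaggaaggaag
Lor, first base at -48, chr3:92083171-92083200 (minus strand): gatcaatagaTGAGTCAgagcaggacaaga
Flg, first base at -103, chr3:93273433-93273462 (plus strand): tggttaagaaTGAATCAgaccatcccacag
Flg2, first base at -69, chr3:93197194-93197223 (plus strand): tgattagaaaTGAATCAgcccatcccacag
Crnn, first base at -96, chr3:93144683-93144712 (plus strand): aagccttggaTGAATCAagcctgcttgtag
Rptn, first base at -96, chr3:93393593-93393622 (plus strand): gagcccagaaTGATTCAggccctaccaaca
Tchhl1, first base at -87, chr3:93468657-93468686 (plus strand): ttggtggtgaTGAATCAggtcattacaccc

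The Flg and Flg2 stretches were the most alike of these, with 26 of 30 bases identical. TATAAA, the TATA box, was found in 6 of the 9 windows and in 13.62% of all windows, searched on both strands. It began at -27 in Lor, -29 in Ivl and Crnn, -31 in Hrnr and Rptn and -53 in Flg, so it was present in genes that were altered and in genes that were not. Of these, 2 stretches are shown.
Ivl, first base at -29, chr3:92573745-92573774 (minus strand): gctagaacaaTATAAAgggccctagttgct
Hrnr, first base at -31, chr3:93319708-93319737 (plus strand): agatggacatTATAAAaaggccagtgtttc

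The direct repeat bound by PPAR and RXR dimers, searched as 2 copies of AGGTCA spaced by 1 base of any kind on both strands, had no match in the 9 windows and occurs in 0.04% of all windows. A match or its absence describes these letters only.

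Total counts per library ranged from 10120840 to 18851255 with no difference found between groups (exact permutation test, two-sided, p = 0.965), nor for RIN, the RNA integrity number, which lay between 5.7 and 8.6 (exact permutation test, two-sided, p = 0.310). Pparg had 59, 269, 5, 15, 58 and 13 counts in WT mice 1 to 6 and 100, 107, 89, 16, 32 and 25 counts in Pparg-/-epi mice 7 to 12 (log2 fold change -0.10, SE 0.71, adjusted p = 0.949). The counts sum over the whole gene, also the part that Cre leaves in place, so they are no check of the genotype. They varied widely within WT, with the highest value in WT replicate 2, which also had the highest adipocyte marker sum (222 CPM). Markers of granular and spinous keratinocytes summed to between 16019 and 47877 CPM, where CPM is the count per 1000000 counts of the library after TMM scaling, so the labelled tissue was found in every library. Fibroblast markers reached 34561 CPM in WT replicate 1, skeletal muscle markers 8620 CPM in WT replicate 5, and sebocyte markers were lower in Pparg-/-epi mice (6 of 11 altered). WT replicate 2 stood apart, with the lowest granular and spinous sum and the highest sebocyte and leukocyte sums. The first number in the name of each mouse, whose meaning is not given in the sources used here, is called the name number below. It was 217 for WT replicate 1, 222 for WT replicate 2 and Pparg-/-epi replicate 10, 226 for the 4 remaining WT mice, 192 for Pparg-/-epi replicate 7, 195 for replicates 8 and 9, and 225 for replicates 11 and 12. In such bulk samples fewer cells of a type and less RNA per cell cannot be told apart.

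Of the 8 genes measured, 2 were altered, Ivl and Hrnr, and both were higher in Pparg-/-epi mice. Altered means here that the log2 fold change was 0.6 or more in either direction and that the adjusted p of edgeR's quasi-likelihood test (Benjamini-Hochberg, over all genes) was under 0.05. Over all genes 10.3% were altered, and 5.19% were altered and higher. The median log2 fold change of the 8 genes was 0.93, against -0.01 over all genes tested. It lies between the values of Crnn (0.85, SE 1.13) and Ivl (1.00, SE 0.11). Crnn did not pass the test and was at -0.36 in a fit with earlier and later name numbers as blocks. The median therefore does not by itself show a shift of the whole set. Ivl was the single gene of the 8 whose 6 Pparg-/-epi mice all lay above its 6 WT mice, and 7.90% of all genes had groups that did not overlap in either direction. The 8 genes together took between 0.627% and 0.707% of all counts in WT mice and between 0.638% and 0.892% in Pparg-/-epi mice.

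**Figure D1:**
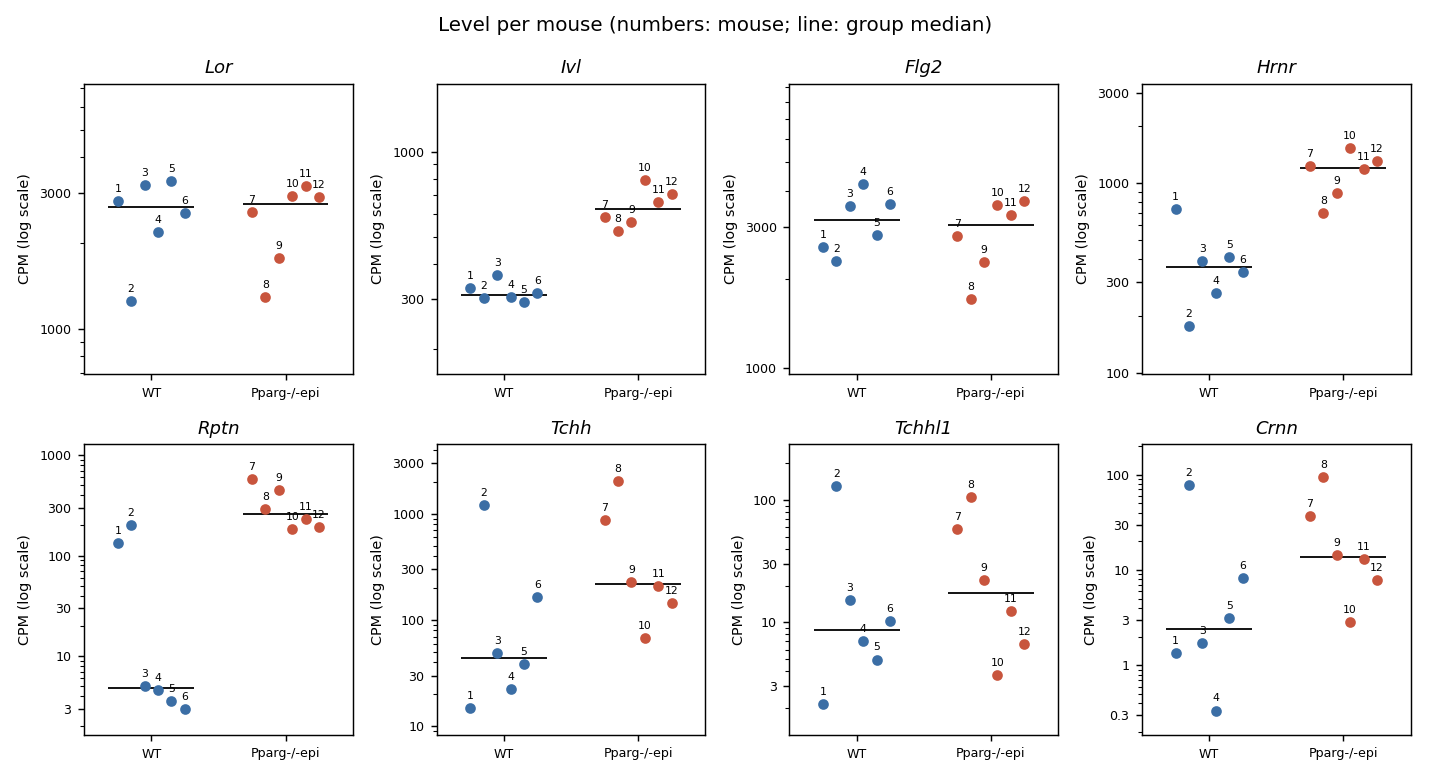
Level of each of the 8 genes in CPM on a log axis, 1 point per mouse, WT mice 1 to 6 in blue and Pparg-/-epi mice 7 to 12 in red, with the group median as a line. Ivl separates the groups, Hrnr nearly does, Rptn is below 6 CPM in WT mice 3 to 6 alone, and Tchh, Tchhl1 and Crnn are high in mice 2, 7 and 8.

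Ivl encodes involucrin, the early scaffold of the envelope (chr3:92570900-92573735, minus strand, 2 exons). Its level was 294 CPM in the lowest WT mouse, 311 at the median and 365 in the highest. In Pparg-/-epi mice it ran from 522 through a median of 626 to 790 CPM. The lowest Pparg-/-epi mouse thus lay well above the highest WT mouse. The WT mice differed little among themselves, with a mean of 319 ± 25.6 CPM (SD, n = 6), and the Pparg-/-epi mean was 639 ± 99.998 CPM (SD, n = 6). The log2 fold change was 1.00 (SE 0.11, 95% interval 0.76 to 1.24, adjusted p = 2.32e-04), a fold of 2.00. Ivl stayed altered without any single mouse, where its log2 fold change lay between 0.93 and 1.05. Within the name number 222, the only one with both genotypes, Ivl was at 304 CPM in the WT mouse and 790 CPM in the Pparg-/-epi mouse. These are a female WT mouse and a male Pparg-/-epi mouse. They had the lowest and the highest granular and spinous marker sums of all mice, so the pair differs in more than genotype.

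Hrnr encodes hornerin, a long filaggrin relative of the cornified layer (chr3:93319749-93333572, plus strand, 4 exons). WT mice ran from 177 CPM through a median of 363 to 732 CPM, and Pparg-/-epi mice from 700 through 1210 to 1530 CPM. The groups overlapped by 1 pair, as WT replicate 1 (732 CPM) lay above Pparg-/-epi replicate 8 (700 CPM), and 5 of 6 Pparg-/-epi mice were above every WT mouse. The WT mean was 384 ± 190 CPM and the Pparg-/-epi mean 1142 ± 301 CPM (SD, n = 6 each). The log2 fold change was 1.57 (SE 0.30, 95% interval 0.92 to 2.22, adjusted p = 0.00460), a fold of 2.97. Hrnr stayed altered without any single mouse, where its log2 fold change lay between 1.41 and 1.85, but not without the 4 WT mice of name number 226 (1.34, adjusted p = 0.198). Within the name number 222 the WT mouse (female) had 177 CPM and the Pparg-/-epi mouse (male) 1530 CPM, the lowest and the highest of all 12 mice. The same mice had the lowest and the highest granular and spinous marker sums, 16019 and 47877 CPM. Between them Lor went from 1247 to 2918 CPM and Flg2 from 2303 to 3568 CPM. The part of granular layer content in this pair was not tested. The genes of the repeat-rich type can lose reads that map to several places, which the authors removed. In the GENCODE transcript of Hrnr 68.2% of the 75-base stretches occur more than once within the transcript itself. This compares with 21.7% in Flg2, 5.25% in Tchh and 0% in the other measured members. The transcript of Flg that was searched is only 1488 bases long, so repeats elsewhere in that gene were not assessed. None of the members' stretches searched occurs in another gene. The counts of Hrnr can therefore miss reads from its repeats, and how many is not known from these files.

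The 2 most abundant genes of the set did not pass the test. Flg2 encodes filaggrin-2, which is processed like profilaggrin (chr3:93197273-93221376, plus strand, 6 exons). It held rank 18 of all genes by mean CPM in WT mice, from 2303 through a median of 3183 to 4208 CPM, and ran from 1710 through 3051 to 3694 CPM in Pparg-/-epi mice. The ranges overlapped over most of their length, and the log2 fold change was -0.14 (SE 0.21, 95% interval -0.60 to 0.33, adjusted p = 0.728). Lor encodes loricrin, the bulk protein of the envelope (chr3:92080271-92083142, minus strand, 2 exons). It ran from 1247 through 2681 to 3305 CPM in WT mice and from 1297 through 2742 to 3168 CPM in Pparg-/-epi mice. Both groups held low mice, WT replicate 2 and Pparg-/-epi replicate 8. For Lor the fold change on the log2 scale was -0.06 (SE 0.26, 95% interval -0.63 to 0.51, adjusted p = 0.905). The intervals of both genes still reach a fall as large as the threshold for an altered gene.

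Ratios within a library carry the contrast between these pairs without any scaling. There were 0.0625 to 0.284 Hrnr counts for each Flg2 count in WT mice, and the Pparg-/-epi mice had 0.356 to 0.442, so the groups did not overlap. There were 0.0889 to 0.244 Ivl counts for each Lor count in WT mice, and the Pparg-/-epi mice had 0.210 to 0.402. Here the groups overlapped, since the highest WT ratio came from WT replicate 2 (0.244), and the next highest WT mouse was at 0.140. A ratio shows unequal change and does not say which of the genes moved.

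**Figure D2:**
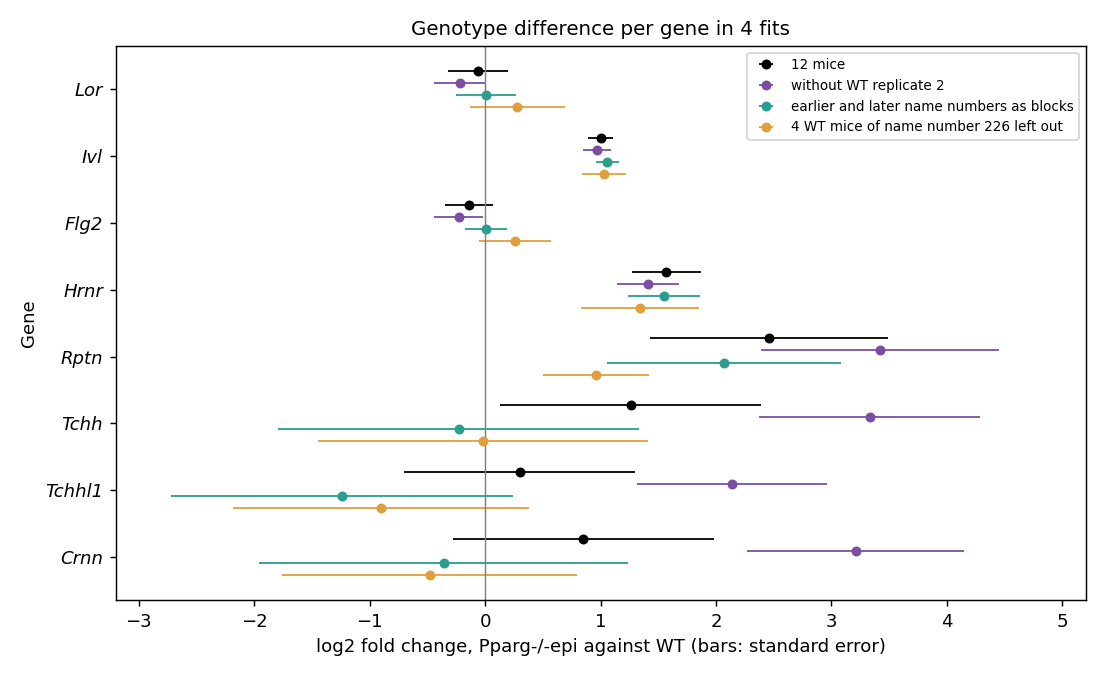
Log2 fold change of each gene between Pparg-/-epi and WT mice with its standard error in 4 edgeR fits, with all 12 mice, without WT replicate 2, with earlier and later name numbers as blocks, and without the 4 WT mice of name number 226. Ivl lies near 1 and Hrnr between 1.34 and 1.57 in all 4, Flg2 and Lor lie near 0, Rptn lies between 0.96 and 3.42, and Tchh, Tchhl1 and Crnn change sign.

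Rptn encodes repetin, an envelope precursor of the upper granular layer (chr3:93393699-93399442, plus strand, 3 exons). In WT mice it fell into 2 levels, with 2.96 to 5.01 CPM in the 4 mice of name number 226 and 133 and 200 CPM in WT replicates 1 and 2. Those 4 mice had 45 to 68 counts each, above the floor of 3 counts. All 6 Pparg-/-epi mice were high, from 183 through a median of 261 to 581 CPM, and WT replicate 2 lay within their range. The log2 fold change was 2.46 (SE 1.03, 95% interval 0.24 to 4.68), and the difference did not pass the test over all genes (adjusted p = 0.129). Within the name number 222 the WT mouse had 200 CPM and the Pparg-/-epi mouse 183 CPM.

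The call for Rptn depended on how the WT mice were treated. With RIN as a covariate its log2 fold change was 2.91 (adjusted p = 0.0367), and with age as a covariate 4.74 (adjusted p = 0.0249). Without WT replicate 2 it was 3.42 (adjusted p = 0.0320). Without the 4 WT mice of name number 226, an alternative chosen after their values were seen, it was 0.96 (adjusted p = 0.300). By the labels the 4 low WT mice were aged 12 or 13 weeks and the 2 high ones 8 and 9 weeks. The study's run sheet gives other ages for some mice, WT replicate 2 and Pparg-/-epi replicate 10 among them, so the value with age as a covariate rests on ages that the sources give in more than 1 way. No other name number but 222 holds both genotypes, so among these mice the name number and the genotype cannot be told apart for Rptn.

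**Figure D3:**
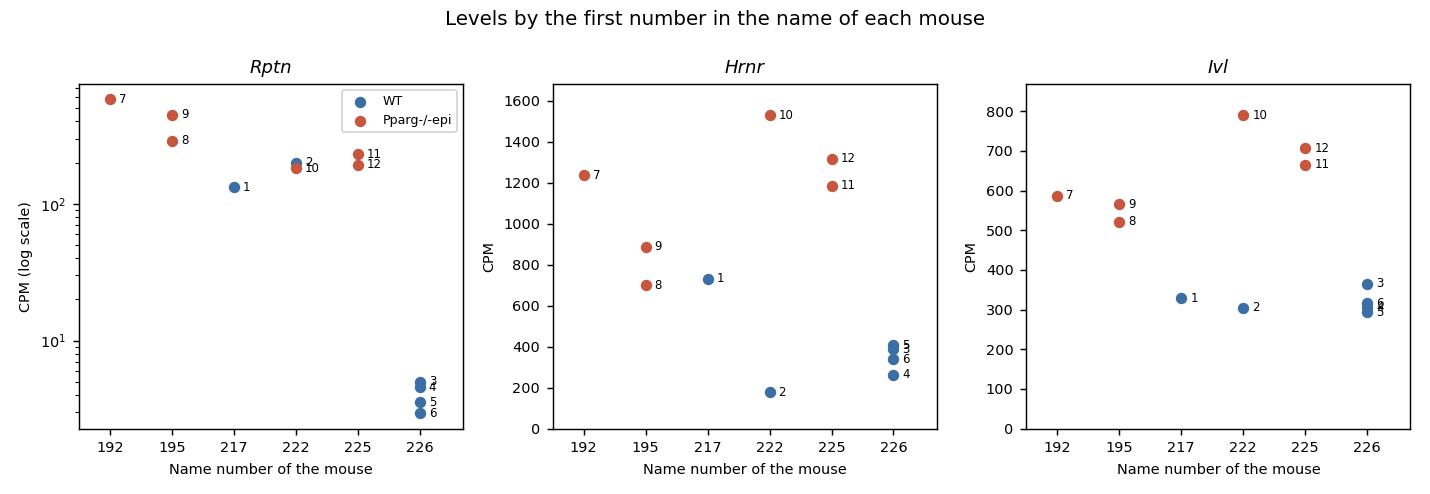
Level in CPM of Rptn (log axis), Hrnr and Ivl (linear axes from 0) by the name number of the mouse, WT in blue and Pparg-/-epi in red, with the mouse number beside each point. The WT mice of name number 226 are at 2.96 to 5.01 CPM for Rptn, and for Ivl every Pparg-/-epi mouse is above every WT mouse. Only the name number 222 holds both genotypes.

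Tchh, Tchhl1 and Crnn varied more between mice of 1 group than between the groups. Tchh encodes trichohyalin of the inner root sheath and hair medulla (chr3:93442330-93449077, plus strand, 2 exons). It ran from 15.0 through 44.1 to 1200 CPM in WT mice and from 68.2 through 219 to 2046 CPM in Pparg-/-epi mice. Tchhl1, a trichohyalin-like gene next to it (chr3:93468754-93471980, plus strand, 3 exons), ran from 2.17 through 8.59 to 129 CPM and from 3.74 through 17.3 to 106 CPM. Crnn encodes cornulin (chr3:93144787-93149471, plus strand, 3 exons), and ran from 0.336 through 2.43 to 78.4 CPM and from 2.83 through 13.8 to 94.5 CPM. In all of them WT replicate 2 was the highest WT mouse, and Pparg-/-epi replicates 8 and 7 were the highest 2 of their group.

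None of the 3 genes passed the test. The log2 fold change was 1.26 for Tchh (SE 1.13, 95% interval -1.18 to 3.69, adjusted p = 0.506). It was 0.85 for Crnn (SE 1.13, 95% interval -1.59 to 3.29, adjusted p = 0.672) and 0.30 for Tchhl1 (SE 1.00, 95% interval -1.86 to 2.47, adjusted p = 0.878). Intervals this wide leave room for large changes either way. Single libraries moved the values in both directions. Without Pparg-/-epi replicate 8, Tchh was at 0.26, Crnn at -0.08 and Tchhl1 at -0.47, and none passed the test. Without WT replicate 2, Tchh was at 3.33 (adjusted p = 0.0271) and Crnn at 3.21 (adjusted p = 0.0279), while Tchhl1 was at 2.14 (adjusted p = 0.0781). In that fit 5 of the 8 genes were altered, against 15.5% of all genes. Without the 4 WT mice of name number 226 it was 1 of the 8, Ivl, against 2.68% of all genes.

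The 3 genes varied together from mouse to mouse, and did so with markers of the hair follicle. After the group means were subtracted, log2 CPM of Tchh correlated with that of Crnn at r = 0.96 (Spearman's rho 0.92) and with that of Tchhl1 at r = 0.94 (rho 0.94) over 12 mice. The inner root sheath and medulla markers other than Tchhl1 (11 genes, led by keratins of the Krt25 and Krt71 type) summed to 16.1 to 1024 CPM in WT mice and 119 to 2740 CPM in Pparg-/-epi mice, and 0 of the 11 were altered. On a log scale Tchh followed this sum at r = 0.96 (rho 0.95), Crnn at r = 0.96 (rho 0.98) and Tchhl1 at r = 0.83 (rho 0.77) over the 12 mice. Hair cortex and cuticle markers had their highest sums in the same mice, 229 CPM in WT replicate 2 and 488 CPM in Pparg-/-epi replicate 8. Hrnr did not follow the sum over all mice (r = 0.10), and within a group it ran the other way (r = -0.55 in WT and -0.78 in Pparg-/-epi mice). This was not particular to Hrnr. In WT and Pparg-/-epi mice in turn, r was -0.43 and -0.84 for Flg2, -0.49 and -0.75 for Lor and -0.14 and -0.86 for Ivl. Over all mice r was -0.62 for Flg2, -0.55 for Lor and 0.30 for Ivl. These correlations describe 12 libraries that share their scaling, and the part of hair follicle content in the 3 genes' values was not tested.

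**Figure D4:**
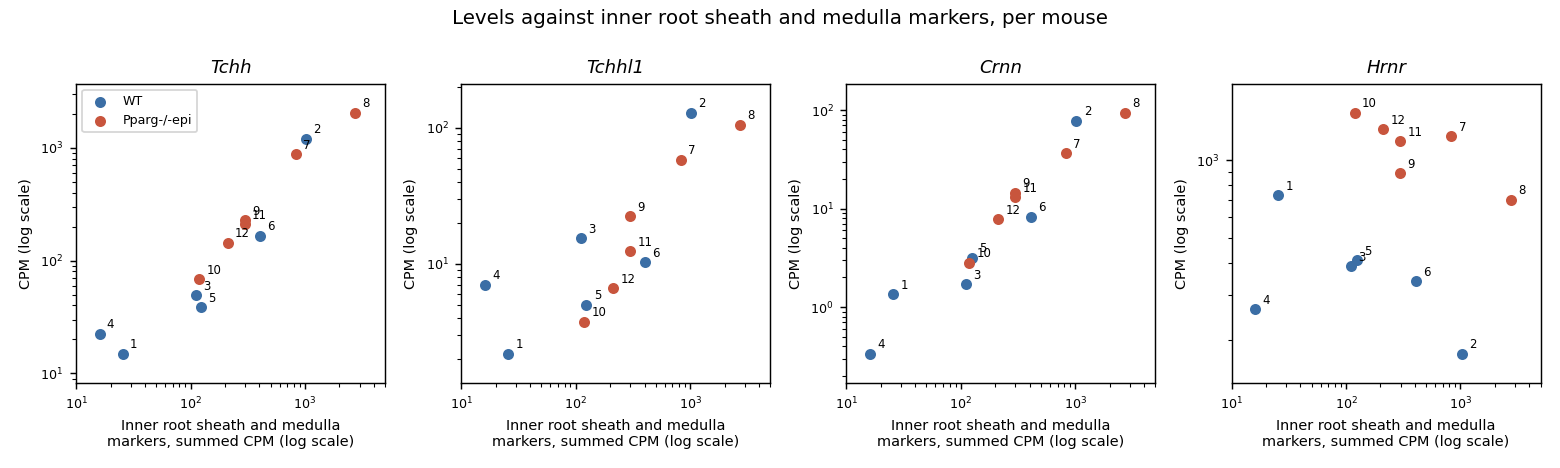
Level of Tchh, Tchhl1, Crnn and Hrnr in CPM against the summed CPM of 11 inner root sheath and medulla markers, both on log axes, 1 point per mouse with its number, WT in blue and Pparg-/-epi in red. Tchh and Crnn lie along 1 line for both genotypes with mice 2, 7 and 8 at the top, whereas Hrnr lies in separate bands by genotype apart from mice 1 and 8.

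Per length (RPKM, the CPM divided by the listed gene length in kilobases), the order in WT mice was Lor at 1434 ± 427, Flg2 at 414 ± 94.6, Ivl at 166 ± 13.3, Tchh at 42.7 ± 80.6, Hrnr at 36.1 ± 17.9, Rptn at 14.0 ± 20.9, Tchhl1 at 13.6 ± 24.1 and Crnn at 9.55 ± 19.0 RPKM (mean ± SD, n = 6). Lor was above Flg2 and Flg2 above Ivl in 6 of 6 WT mice, with no overlap of the ranges. From Ivl downward every neighbour's range overlapped the next, and the mean of Tchh is set by WT replicate 2, since Tchh exceeded Hrnr in 1 of 6 WT mice. In Pparg-/-epi mice Lor (1371 ± 417 RPKM) again led, and Ivl (332 ± 51.97 RPKM) came close to Flg2 (377 ± 102 RPKM), with Flg2 above Ivl in 5 of 6 mice. Hrnr followed at 107 ± 28.2 RPKM, below Ivl in all 6 mice without overlap, ahead of Tchh at 102 ± 132 and Rptn at 77.4 ± 38.6 RPKM, and the ranges of these 3 overlapped. Crnn (17.3 ± 21.2 RPKM) and Tchhl1 (16.8 ± 19.3 RPKM) were last and did not differ beyond their spread. The RPKM of Hrnr rests on the reads left after removal of those with several places.

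No difference in the genotype effect between the sexes passed the test. The interaction of genotype and sex had adjusted p values between 0.895 and 0.982 for the 8 genes, and 0 of all genes passed an adjusted p of 0.05, with 741 at an unadjusted p under 0.05 and 4 genes passing in the likelihood ratio test. With 2 male Pparg-/-epi mice this says little about the size of such a difference.

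The partners of these proteins were taken as lists. Of 16 genes for proteins that are built into the envelope with them or for the enzymes that cross-link them, 1 rose and 0 fell (6.25% altered, below the 10.3% of all genes), and the list's median log2 fold change was 0.03. The gene that rose was Tgm3, a transglutaminase that cross-links loricrin and trichohyalin, from 18.3 ± 7.22 to 62.9 ± 15.0 CPM (SD, n = 6, log2 fold change 1.78, adjusted p = 6.21e-04), while Tgm1, the membrane-bound transglutaminase, stood at 0.36 (adjusted p = 0.129). The most abundant partner, Dmkn (dermokine), had -0.36 (adjusted p = 0.396). Of 20 measured genes that cut, deiminate or otherwise act on profilaggrin and its products, 4 rose and 0 fell (20% altered, against 10.3% of all genes, median 0.22). Casp14, a protease of filaggrin breakdown, rose from 397 ± 166 to 1394 ± 244 CPM (log2 fold change 1.81, adjusted p = 5.01e-04). Asprv1, the aspartic protease that cuts profilaggrin repeats, rose too (log2 fold change 0.85, adjusted p = 0.00298), as did Furin (0.76, adjusted p = 0.0208). Spink5, the inhibitor of kallikreins, had a value of -0.49 (adjusted p = 0.176).

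Basal and suprabasal keratins and regulators of terminal differentiation gave mixed results. Of 7 epidermal keratins 1 rose, Krt14 (log2 fold change 0.98, adjusted p = 0.00559), and 1 fell, Krt15 (log2 fold change -1.74, adjusted p = 0.00106). That is 28.6% altered, against 10.3% of all genes, and the list's median was -0.02. None of the suprabasal keratins of the list, Krt1, Krt2, Krt10 and Krt77, was altered over all 12 mice. Krt10, the main suprabasal keratin, had -0.02 (adjusted p = 0.983), and Krt77 had -0.39 (adjusted p = 0.256). Krt1 was at 1.02 (SE 0.39, adjusted p = 0.101) and the low Krt2 at -1.20 (SE 0.55, adjusted p = 0.162). Not passing the test is therefore no sign that these keratins were level. Of 30 transcription factors known for terminal differentiation, 2 rose and 2 fell (13.3% altered, near the 10.3% of all genes, median 0.11), and 2 in all were altered without any one of WT replicates 3, 4 or 6 or Pparg-/-epi replicates 7 or 9. Over all mice the 4 were Vdr, the vitamin D receptor (log2 fold change 1.01, adjusted p = 0.0120), Barx2 (0.78, adjusted p = 0.0359), Gata3, a factor of epidermal and follicle lineages (-0.98, adjusted p = 0.0238) and Ppara, a relative of the deleted receptor (-1.31, adjusted p = 1.67e-04). The most abundant of them, Klf4, had -0.04 (adjusted p = 0.951). Of 10 genes known from wounded and inflamed epidermis 9 rose (90% altered, against 10.3% of all genes, median 2.83). This list was chosen with earlier results of these data known, most of its genes being reported as higher by the study, so its count is a description and no independent support. Its genes Sprr1b, Sprr2d, S100a8 and S100a9 are counted again below among the Lce, Sprr and S100 genes. Among the 9 were Il1f6, an interleukin 36 (log2 fold change 3.90, adjusted p = 7.97e-04), Sprr1b (3.65, adjusted p = 0.00286), Serpinb3a (3.28, adjusted p = 1.11e-04) and Krt17, the most abundant (1.79, adjusted p = 0.00117).

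All 9 genes lie among other genes of the cornified layer. Between S100a1 and S100a10 (chr3:90511034-93564645) the table lists 55 genes, of which 24 rose and 0 fell, 43.6% altered against 10.3% of all genes. Without the 8 genes described here it was 22 of 47. The Lce and Sprr families of small envelope proteins held 19 of these, out of 29 listed, with a median log2 fold change of 1.69, led by Sprr1b, Sprr2d (3.24, adjusted p = 0.00482) and Lce3e (3.14, adjusted p = 0.00723). Of 13 S100 genes, whose fold the filaggrin-type proteins share, 2 rose and 0 fell (15.4% altered, near the 10.3% of all genes, median 0.27). The 2 were S100a8 (2.74, adjusted p = 0.00165) and S100a9 (2.74, adjusted p = 0.00403), and the abundant S100a11 had 0.29 (adjusted p = 0.380). In the stretch from Crnn to Tchhl1 (chr3:93144787-93471980) 1 of 6 genes was altered, Hrnr, which lies between Flg2 (log2 fold change -0.14) and Rptn (2.46). Several Lce and Sprr genes are near copies of each other, so these counts are a description of the region.

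**Figure D5:**
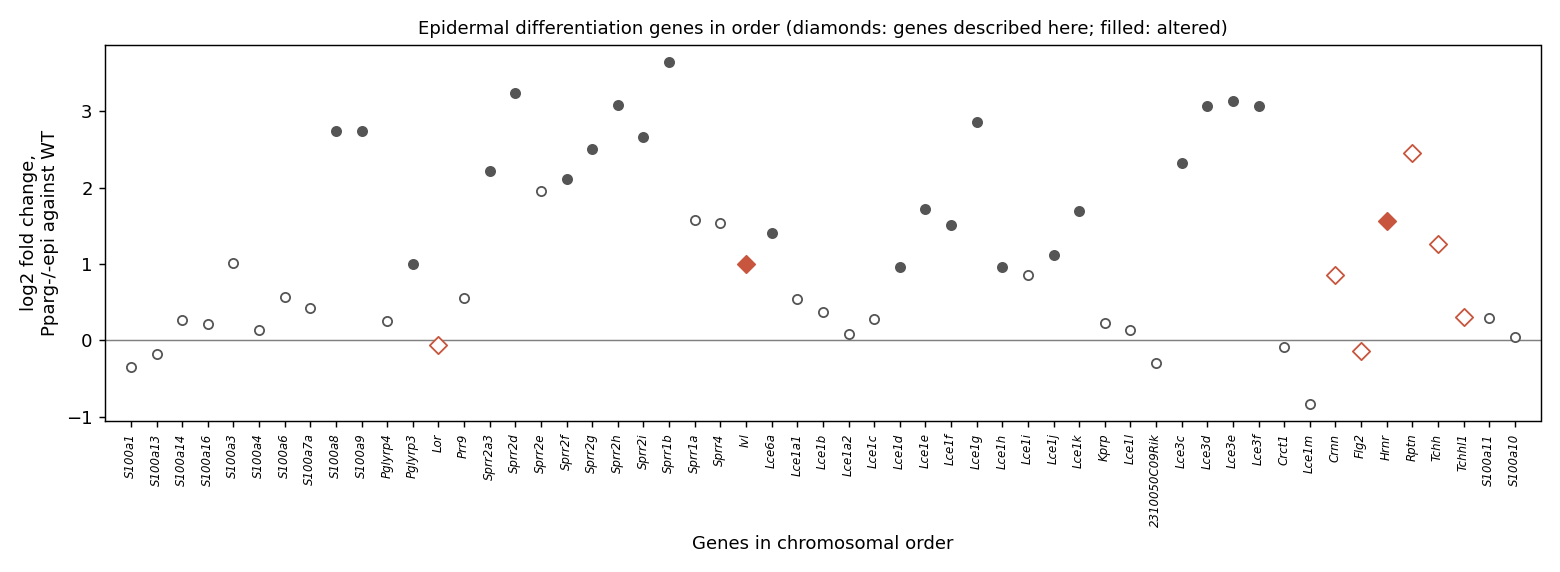
Log2 fold change between Pparg-/-epi and WT mice for the 55 listed genes from S100a1 to S100a10 in chromosomal order, with the genes described here as diamonds and altered genes filled. The Sprr and Lce3 genes reach log2 values above 2, Lor and Flg2 lie near 0, and the filled diamonds are Ivl and Hrnr.

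The genes whose mouse-to-mouse pattern was most like each member, over log2 CPM with group means subtracted in 12 mice and among genes of mean CPM of at least 5, differed from member to member. Lor was closest to Wbp2, Cdsn (corneodesmosin, the granular layer adhesion protein) and Osbpl1a, each at r = 0.97. Flg2 was closest to Dlg2, Gtf3c2 and Agpat9, each at r = 0.96. Hrnr was closest to Cdh4 (r = 0.96), Lce1f (r = 0.94) and Il1f9 (r = 0.93). Cdh4 itself fell (log2 fold change -1.90, adjusted p = 1.04e-05), whereas Lce1f rose (1.51, adjusted p = 0.00303), so likeness within groups did not carry the direction between them. Ivl was closest to Gpr137 (r = 0.94), Nrbp1 and Pdxp (r = 0.91 each), and Rptn to Tgfb1i1 (r = 0.97), Cadm3 and Cd81 (r = 0.95 each). Tchh was closest to Gprc5d (r = 0.97), Padi3 and Crym (r = 0.96 each), Crnn to Crym (r = 0.96), Slc7a8 (r = 0.95) and Padi3 (r = 0.94), and Tchhl1 to Marcksl1, Prr9 (r = 0.95 each) and Fads3 (r = 0.94). Padi3, which deiminates trichohyalin, and Crym, one of the 11 follicle markers, were thus shared by Tchh and Crnn. Among the members, Hrnr and Lor moved together (r = 0.81), as did Flg2 and Ivl (r = 0.70), and each of these ran against Tchh (r between -0.75 and -0.56).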

How the data were processed

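Epidermal scrapings of 12 mice were sequenced as paired-end reads of 75 bases. The authors aligned them with STAR 2.5.2b to mm10, removed reads mapped to several places and deposited counts per gene from featureCounts (Subread 1.5.1), without normalization. Whether counting used strand is not given in the sources used here. The table lists 17333 rows, of which 2800 without a symbol were dropped, and each gene left exceeds 0.5 CPM in 6 mice or more. Libraries of WT mice held 10120840 to 16947632 counts and those of Pparg-/-epi mice 11272135 to 18851255, which sets the precision of low genes. The floor of 3 counts covers counting error only, whereas the 95% intervals of log2 fold changes come from the edgeR fit and include the spread between mice. Columns were matched to mice by names in the labels and the study's run sheet.

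Counts were scaled with TMM and tested with edgeR 4.0.16 (R 4.3.3, quasi-likelihood test, genotype only, all 12 mice, Benjamini-Hochberg over 14533 genes), which was tested on simulated data. The alternatives were the likelihood ratio test, which the study's methods name, DESeq2 1.42.0, RLE size factors, total counts, a minimum of 10 counts in every mouse, filterByExpr, each mouse left out, each sex alone, and sex, RIN, age or name numbers (up to 217 and from 222) as terms. Replicates are separate mice, and no 2 libraries were duplicates. RPKM used the listed gene lengths, log2 CPM a prior count of 2. Single values were compared with exact permutation tests. Exons of the members overlap another GENCODE gene on the same strand in Rptn alone (45 bases), and none on the opposite strand. Named genes were the members, Pparg, the altered genes with the largest changes and the most abundant gene of each list, and the 3 genes most like each member, beside a few partners named for their role after their values were seen. The members and lists were chosen with earlier results of these data known. Plots were made in Python 3.11.15 (matplotlib 3.10.9).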

Additional observations from a re-analysis of the deposited data

Results flagged for a closer look

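Within a group of 6 mice, a mouse was singled out where its gap to the nearest other mouse exceeded Dixon's 95% critical value as a share of the group's range. For normally distributed values chance gives this in about 1 in 20 groups. The rule was applied to CPM without a log scale, so that rate need not hold here. Among the 8 genes the rule named WT replicate 2 as the highest WT mouse for Tchh (1200 CPM, gap 0.873 of the range), Tchhl1 (129 CPM, 0.896) and Crnn (78.4 CPM, 0.898). These genes varied together from mouse to mouse, so their flags are not separate events. The rule also named Pparg-/-epi replicate 8 as the highest of its group for Crnn (94.5 CPM, 0.631). The same 2 mice had the highest sums of inner root sheath and medulla markers in their groups, 1024 CPM in WT replicate 2 and 2740 CPM in Pparg-/-epi replicate 8. The part of follicle content in these values was not tested.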

How the results depend on the processing

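Of the 8 genes, Ivl and Hrnr were altered under every alternative except with the male mice alone (0 genes, where all genes gave 18 calls, Hrnr 1.47 with adjusted p = 0.138 and Ivl 1.17 with adjusted p = 0.0682) and, for Hrnr, without the WT mice of name number 226, an alternative added after the data were seen (1 gene, 389 over all genes). Female mice alone gave 651 altered genes and 2 of the 8. With 1 mouse left out, 2 to 5 of the 8 and 1116 to 2249 of all genes were altered, the highest counts without WT replicate 2, where Rptn (3.42), Tchh (3.33) and Crnn (3.21) were altered too.

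The sign of genes that did not pass turned with several settings, and no value of the turned sign passed the test. With name numbers as blocks Flg2 was at 0.01, Lor 0.01, Tchh -0.23, Crnn -0.36 and Tchhl1 -1.24. Without the WT mice of name number 226 they were at 0.26, 0.28, -0.02, -0.48 and -0.90 in the same order. Tchhl1 was at -0.54 in males, where Flg2 was at 0.27, at -0.17 with sex and at -0.07 with RIN as a term. Lor was at 0.13 in females, 0.05 with sex and 0.19 with RIN as a term. With 1 mouse left out, Lor ran from -0.22 to 0.05, Crnn from -0.08 to 3.21 (the latter altered, as above) and Tchhl1 from -0.47 to 2.14. The interaction with sex ran from -4.70 to 2.99 for Rptn, -1.52 to 1.71 for Tchh, -1.82 to 1.79 for Crnn, -3.03 to 0.53 for Tchhl1 and -0.45 to 0.02 for Lor. The cause was not tested. Of the gene lists, male mice alone left 0 or 1 altered gene in each (1 for profilaggrin processing and for the Lce and Sprr families). Without the WT mice of name number 226 the Lce and Sprr families held 8, profilaggrin processing 1, keratins 0 and regulators 1. With at least 10 counts in every mouse the Lce and Sprr families held 11, the genes of activated epidermis 5 and the S100 genes 1. The envelope partners held 2 with DESeq2, sex or blocks and 3 with RIN, and the regulators 2 in females and without WT replicates 3, 4 or 6 or Pparg-/-epi replicates 7 or 9. In females profilaggrin processing held 1. The keratins held 3 with DESeq2, with sex as a term, and without any one of WT replicates 1 or 2 or Pparg-/-epi replicate 10. Ranked by CPM without length, the WT order began with Flg2, Lor, Hrnr, Ivl and Tchh.

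With at least 10 counts in every mouse 12389 genes remained and Crnn could not be tested. No paired analysis was made, because the labels do not say which WT and Pparg-/-epi mice were siblings of each other. Ages are those of the labels.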
